A study of Mus musculus with 2 samples.

Results

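The peaks described here are the odd-probe peaks of a ChIRP-seq experiment on chromosomes 1 to 19 that overlapped at least 1 even-probe peak by 1 bp or more, where the odd peak and each even peak under it had a pileup below 30. Pileup is the number of sequenced fragments, extended to 200 bp, that lay over the summit of a peak. The rule gave 409 odd peaks, which paired with 403 even peaks in 432 pairs, out of 14261 peaks of the odd probes and 3637 of the even probes. They are called shared moderate peaks below. Of the odd peaks with a pileup below 30 on these chromosomes 3.18% met the rule, and 12.1% of the even peaks below 30 paired with such a peak. The limit of 30 left out 134 taller shared odd peaks. The peaks were thus chosen by their overlap and their pileup, so their number and their heights are a description and no test was made on them.

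The chromatin came from primary hepatocytes isolated from 4 female wild-type C57BL/6 mice that were 8 weeks old, fixed in 3% formaldehyde for 10 minutes and pooled. 14 probes antisense to the hepatic lncRNA *Gm19619* were split into an odd-numbered and an even-numbered set, and each set gave 1 library. Both libraries thus came from the same kind of animals and fixed cells, and the labels give the probe set as their only difference. The pooled animals cannot be told apart, neither probe set was repeated, no input or non-targeting pull-down was used here, and the files hold recovered DNA only, so that the hepatocyte label could not be checked against *Alb* or other marker transcripts. Both lists also held peaks on chromosome Y, although the mice are described as female. These peaks are not among those described here, and their source was not tested.

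In ChIRP, biotinylated oligonucleotides that are complementary to an RNA pull down that RNA together with the chromatin crosslinked to it, and the recovered DNA is sequenced. DNA that carries a stretch of the target RNA sequence can be recovered by direct pairing with a probe as well. Splitting the probes into 2 sets is the usual control, since chromatin bound by the RNA should come down with either set, whereas pairing of a single probe should appear with its own set only. Much of the mouse genome is repeated, and a short read from a place with near-identical copies cannot always be assigned to a single one of them.

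4 groups of sequences recur in the results. All were read from the GRCm38 reference and are written 5′ to 3′. The first group shows a run of 17 bases of *Gm19619* exon 3, or part of it, that 23 shared moderate peaks carried. Capitals mark the bases shared with *Gm19619*. The windows lie at chr5:91280164-91280210 on the minus strand for the gene itself, and on the plus strand at chr10:129587520-129587566 near *Gm23252*, at chr17:57856125-57856171 in an intron of *Cntnap5c* and at chr4:110469761-110469804 in an intron of *Agbl4*.
*Gm19619* exon 3: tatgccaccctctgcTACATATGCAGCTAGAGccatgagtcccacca
near *Gm23252*: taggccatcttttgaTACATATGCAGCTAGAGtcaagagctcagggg
in *Cntnap5c*: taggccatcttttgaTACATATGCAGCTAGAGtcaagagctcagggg
in *Agbl4*: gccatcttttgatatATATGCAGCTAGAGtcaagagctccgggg

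The second group shows runs of 14 to 19 bases that crossed from exon 2 to exon 3 of the annotated spliced transcript and differ in extent. 5 shared moderate peaks carried such a run, which is not continuous in the gene itself. In the joined exons, whose bases lie between chr5:91280878-91281444 on the minus strand, capitals mark exon 3. In the peaks, capitals mark the bases shared with the RNA, all on the minus strand, at chr14:34794628-34794674 near *A930038B10Rik*, chr13:41806755-41806798 in *Adtrp*, chr5:130878514-130878562 in *Galnt17* and chr10:32205676-32205723 in *Nkain2*.
*Gm19619* exons 2 and 3 joined: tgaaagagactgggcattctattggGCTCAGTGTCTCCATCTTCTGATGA
near *A930038B10Rik*: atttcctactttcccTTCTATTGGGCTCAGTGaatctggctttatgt
in *Adtrp*: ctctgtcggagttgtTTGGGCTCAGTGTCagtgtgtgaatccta
in *Galnt17*: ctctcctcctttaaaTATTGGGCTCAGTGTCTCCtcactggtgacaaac
in *Nkain2*: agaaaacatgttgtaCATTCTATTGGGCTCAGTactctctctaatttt

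The third group shows a run of exon 6 that 6 shared moderate peaks carried. Capitals again mark the shared bases. The windows lie at chr5:91258479-91258525 on the minus strand for the gene, at chr3:77163350-77163394 on the plus strand near *Gm23644*, at chr11:107677716-107677760 on the minus strand in *Helz*, and on the plus strand at chr8:16615378-16615421 in *Csmd1* and chr12:3838957-3839000 in *Dnmt3a*.
*Gm19619* exon 6: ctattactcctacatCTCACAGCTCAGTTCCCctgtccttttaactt
near *Gm23644*: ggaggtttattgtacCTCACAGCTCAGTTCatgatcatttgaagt
in *Helz*: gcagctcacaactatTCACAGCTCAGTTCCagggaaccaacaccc
in *Csmd1*: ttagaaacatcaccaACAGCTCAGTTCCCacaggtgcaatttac
in *Dnmt3a*: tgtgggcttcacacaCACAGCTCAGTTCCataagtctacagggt

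The last group shows repeated DNA. The pair from chromosome 1 is a window around the summit of a peak in *C130026I21Rik* (chr1:85264415-85264515) and its copy in *Sp140* (chr1:85606057-85606157, minus strand), where capitals mark the 3 bases that differ. The last is the window around the summit in an intron of *Cdk8* (chr5:146261109-146261209).
in *C130026I21Rik*: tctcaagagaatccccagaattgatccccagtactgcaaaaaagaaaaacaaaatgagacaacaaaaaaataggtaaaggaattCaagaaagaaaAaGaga
in *Sp140*: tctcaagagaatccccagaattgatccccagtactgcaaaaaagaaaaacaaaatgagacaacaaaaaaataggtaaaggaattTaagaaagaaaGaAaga
in *Cdk8*: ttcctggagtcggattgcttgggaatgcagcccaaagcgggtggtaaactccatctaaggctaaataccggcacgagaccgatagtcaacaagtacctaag

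The shared moderate peaks were low and of similar height with both probe sets. Odd pileup ranged from 6 to 29 with a median of 11, and even pileup from 5 to 29 with a median of 11. The ratio of odd to even pileup, taken against the highest even peak under each odd peak, had a median of 1.0, its quartiles were 0.8 and 1.29, and its range was 0.35 to 3.71. The odd pileup was the higher in 172 peaks, the even in 186, and both were equal in 51. Both pileups were below 10 in 85 peaks and at or above 20 in 23. Across the 409 peaks Spearman's rho of the pileups was 0.386 and Pearson's r of log2 values 0.424. This is a description that has no replicate behind it and in which every point comes from the same 2 libraries. The rule also kept only peaks called in both lists and below 30 in each, so the strength of the correlation is not read as agreement of the probe sets.

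**Figure D1:**
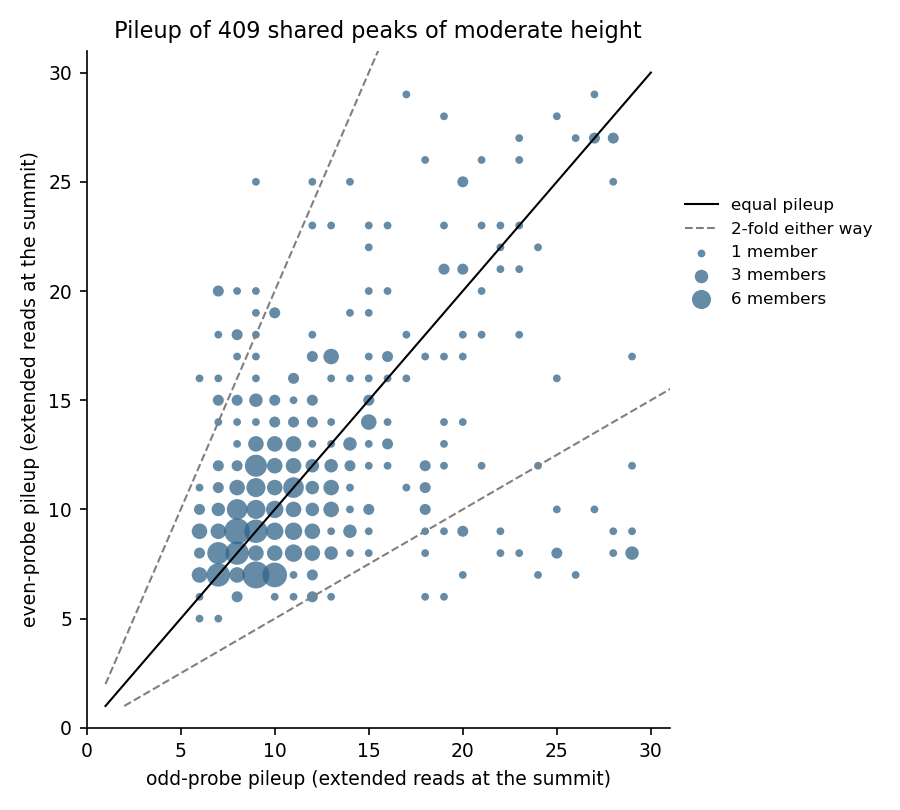
Odd-probe pileup (x axis) against even-probe pileup (y axis), both in extended reads at the summit, of the 409 shared moderate peaks. The area of a point gives the number of peaks at that pair of values, the solid line marks equal pileups and the dashed lines a 2-fold difference. 364 peaks lie between the dashed lines, and the peaks on or below the lower line reach an odd pileup of 29 with even pileups of 6 to 12.

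Peaks whose odd pileup was at least 2 times the even less often had another copy in the genome than peaks of more equal pileups. The odd pileup was at least 2 times the even in 28 shared moderate peaks, against 14.2% of all 543 shared odd peaks of these chromosomes, and the even was at least 2 times the odd in 17, against 3.87% of all. These counts follow from the heights that chose the peaks, and nothing is read from them. The measure that the rule did not use was the number of copies. Another copy in the genome was found for 6 of the 28 odd-higher peaks (21.4%, 95% Wilson interval 10.2 to 39.5) and for 262 of the 364 peaks between (72.0%, 67.2 to 76.3). Among the 17 even-higher peaks it was found for 9 (52.9%, 31 to 73.8), an interval that overlaps that of the peaks between. In clusters stood 2 of the 28, 179 of the 364 and 7 of the 17 peaks, and the part of this in the difference was not tested. The highest ratios were 58071 bp from *Gm23644* (26 odd, 7 even) and 11653 bp from *Ftmt*, which encodes mitochondrial ferritin (29 and 8). The others were in *Helz*, an RNA helicase gene (29 and 8), near *Gm34983* (29 and 8) and in *Stox2* (28 and 8). The lowest were near *A930038B10Rik* (7 odd, 20 even), in *Fam210a* (7 and 20), in *Galc*, which encodes a lysosomal galactosidase (9 and 25), near *Pisd-ps1* (6 and 16) and in *Adtrp* (7 and 18).

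Near the limit of 30, 20 of the shared moderate peaks had a pileup of 27 to 29 in at least 1 library, with the lower pileup of the pair between 8 and 27. 15 shared odd peaks just outside had a higher pileup of 30 to 32, with the lower between 7 and 28.

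The paired peaks were short and usually covered the same bases. Odd peaks had a median length of 333 bp (200 to 3698) and the even peaks 338 bp (200 to 3632). The overlap had a median of 232 bp, which was 80.1% of the odd and 82.6% of the even peak. Summits lay a median of 67 bp apart, at most 50 bp in 176 peaks and more than 200 bp in 105. 386 odd peaks lay over 1 even peak and 23 over 2. 268 pairs overlapped by at least 50% of both peaks. Among peaks that stood in clusters the median summit distance was 162 bp, against 34 bp outside clusters.

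The shared moderate peaks were spread unevenly over the genome. Chromosome 1 held 134 of the 409, which was 11.9% of its odd peaks below a pileup of 30. Chromosome 4 held 47 (5.31%), chromosome 16 held 21 (4.29%), and chromosome 15 held 3 (0.546%). 14 clusters of at least 3 shared moderate peaks, with gaps of at most 100 kb, held 188 peaks (46.0%), a further 26 stood in groups of 2 and 195 stood alone. The 3 clusters of chromosome 1 held 116. Without the peaks in clusters, chromosome 1 held 18 of 221 (8.14%, 5.21 to 12.5), close to its 7.97% of the odd-only peaks, that is, the 12428 odd peaks below 30 that overlapped no even peak.

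**Figure D2:**
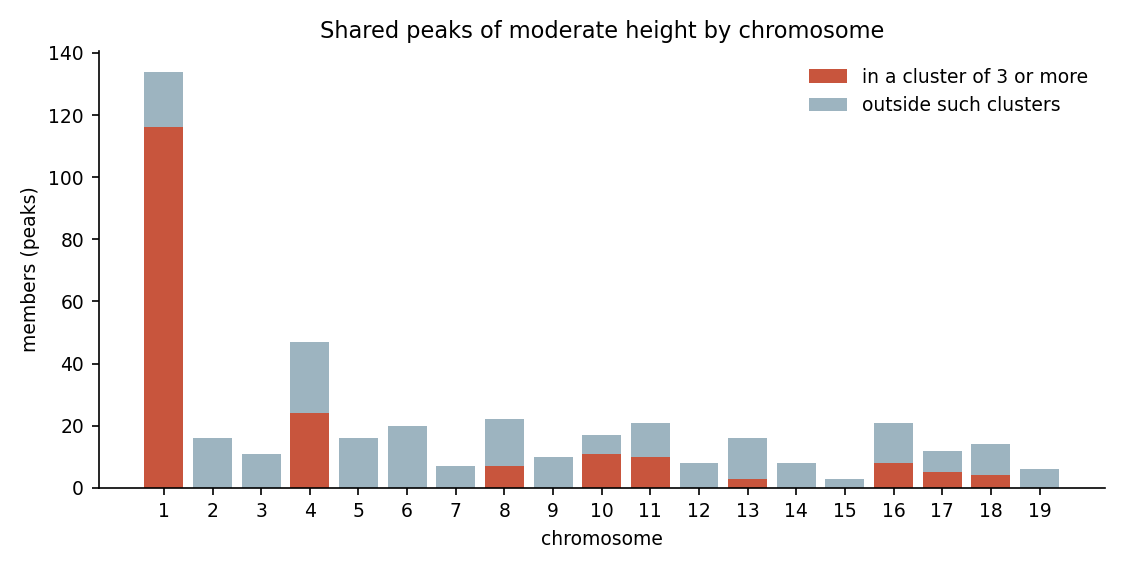
Number of shared moderate peaks (y axis) on each of chromosomes 1 to 19 (x axis), split into peaks in clusters of 3 or more (red) and the others (pale blue). Chromosome 1 reaches 134 peaks, 116 of them in its 3 clusters, and no other chromosome passes 47.

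The largest cluster covered 348 kb (chr1:84994449-85342735) and held 61 shared moderate peaks. Their odd pileups were 6 to 19 and their even pileups 5 to 18, with medians of 9 and 10. 39 of them lay within the annotated body of *C130026I21Rik*, 38 within the pseudogene *Gm2619*, which overlaps it, 14 in *A530032D15Rik* and 11 in the pseudogene *Gm16026*. The second cluster (chr1:85479279-85627904, 149 kb) held 31 peaks with odd pileups of 7 to 18 and even pileups of 6 to 17. 14 of them lay in *Sp110* and 12 in *Sp140*, which encode nuclear body proteins of the Sp100 family that are known from interferon responses. The sequences of both clusters resembled each other. 53 of the 61 and 28 of the 31 summits had another copy at 95% identity or more, within 1 Mb for 52 and 28 of them, and summits of the first cluster matched places in the span of the second 58 times. The pair printed above had pileups of 11 odd and 10 even in *C130026I21Rik* and of 8 and 7 in *Sp140*. An assembly gap of 100000 bp lay 4369 bp from the first cluster.

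The third cluster differed from these in that no summit had a second copy. It covered 96.1 kb at chr1:88213975-88310083, from the last exons of the *Ugt1a* genes through *Mroh2a* and *Hjurp* into *Trpm8*. *Ugt1a* genes encode the glucuronosyltransferases that conjugate bilirubin and drugs in the liver and share their last exons, *Hjurp* encodes the chaperone that loads the centromeric histone, and *Trpm8* encodes a cold-sensing cation channel. The cluster held 24 shared moderate peaks, with odd pileups of 6 to 13 and even pileups of 7 to 16, each with a median of 9. 0 of the 24 summits had another copy in the reference, their median soft-masked share was 14%, and the nearest assembly gap lay 2766872 bp away. Counting all peaks, the span held 49 odd and 36 even peaks, or 51.0 and 37.5 per 100 kb. The 100 kb before it held 4 odd summits and 1 even summit, and the 100 kb after it held 0 of either. Over all of chromosomes 1 to 19 the lists held 0.57 odd and 0.144 even peaks per 100 kb. Among single peaks, the one in *Ugt1a1* at chr1:88213975-88214549 had pileups of 9 odd and 11 even, that in a coding exon of *Hjurp* at chr1:88276670-88277414 had 11 and 10, and that in *Trpm8* at chr1:88277720-88279211 had 11 and 9.

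**Figure D3:**
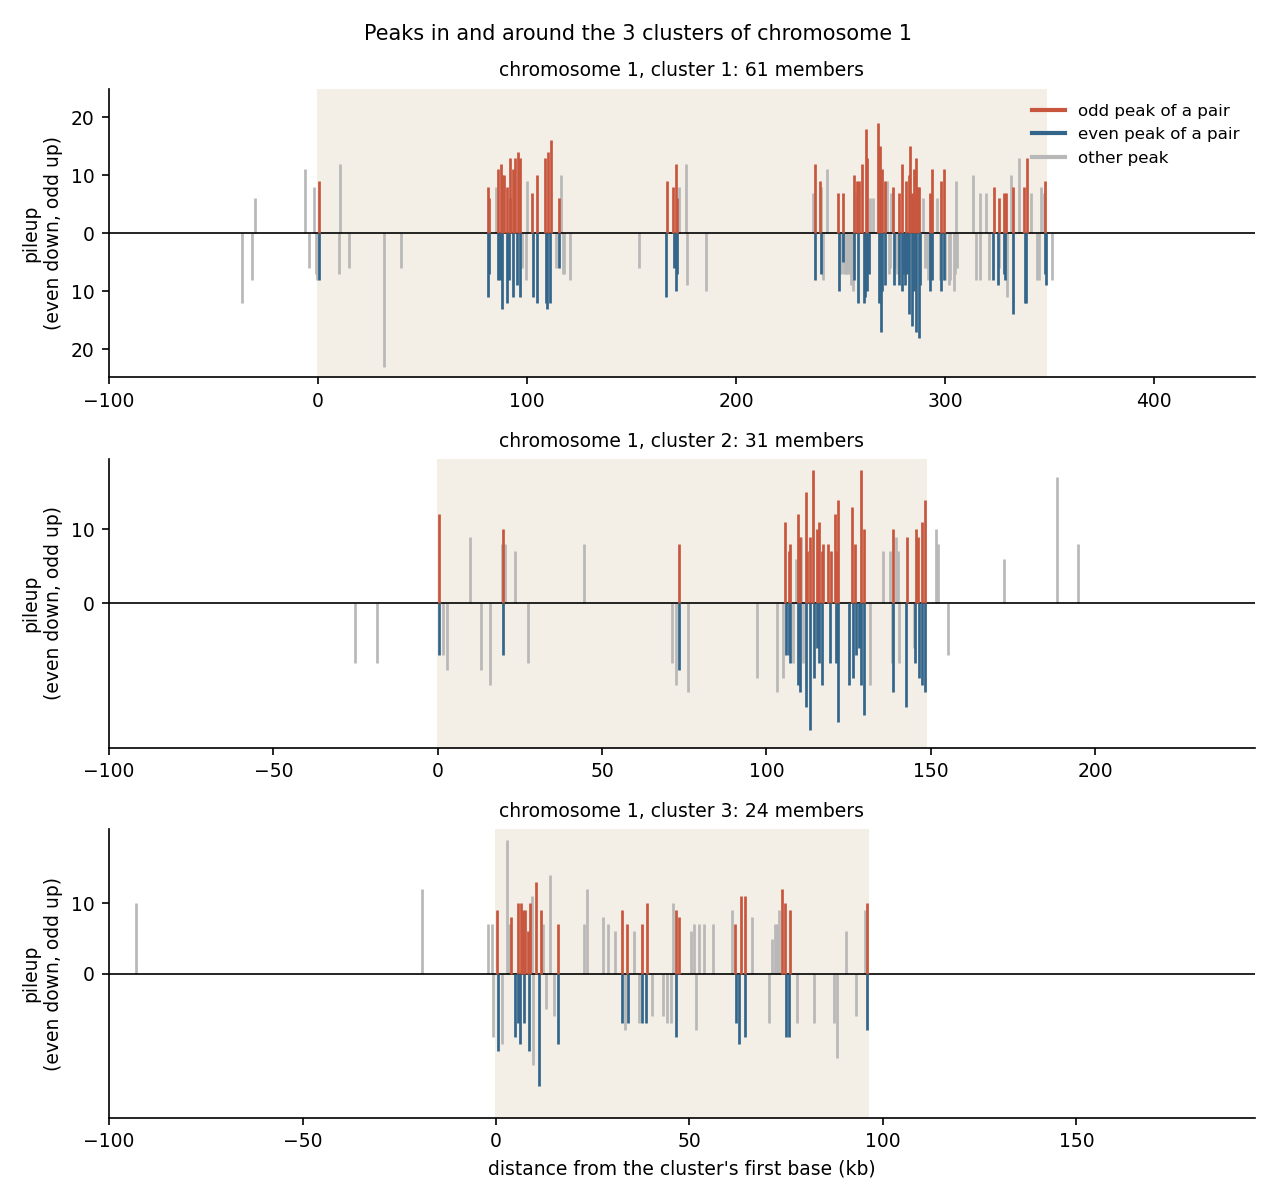
Peaks in and 100 kb around the 3 clusters of chromosome 1 (shaded), by distance from the first base of the cluster in kb (x axis). Odd pileups point up and even pileups down (y axis, extended reads at the summit), coloured where the peak belongs to a shared moderate pair and grey otherwise. In the third cluster 49 odd and 36 even peaks crowd into 96.1 kb and 0 follow in the next 100 kb.

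The other 11 clusters held 3 to 18 peaks. The largest of them (chr4:147334835-147451184) held 18 inside the overlapping lincRNAs *Gm26624* and *C230088H06Rik*, with odd and even pileups of 7 to 12 and 6 to 12, and 12 had another copy. At chr10:58221373-58239568, 8 peaks surrounded *AW822073* and *Duxf3*, a member of the tandem array of double homeobox genes that are active in the early embryo. All 8 had another copy within 1 Mb, and their pileups were 8 to 14 and 7 to 13. The highest medians of a cluster (23 odd and 27 even) were at chr10:3109670-3117184, where 3 peaks stood at odd pileups of 19 to 26 and even pileups of 26 to 28. At chr16:3235966-3247612 all 8 odd peaks in the span were shared moderate peaks. 10 peaks at chr11:3101954-3128070 near *Pisd-ps1* and 5 at chr17:3029778-3084596 around *Pisd-ps2*, both pseudogenes of the phosphatidylserine decarboxylase gene, matched each other 3 and 2 times. 6 peaks at chr4:3083330-3177111 near *Vmn1r-ps2* and 4 at chr18:3115514-3119726 near *Vmn1r238* did so 17 and 3 times. Vmn1r genes encode vomeronasal receptors. Several clusters lay close to the start of the sequenced part of a chromosome, and 46 of the 409 peaks (11.2%, 8.54 to 14.7) lay within 1 Mb of the first sequenced base of their chromosome, against 0.845% of the odd-only and 15.7% (10.5 to 22.8) of the taller shared peaks.

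The genes nearest to the shared moderate peaks were less often protein-coding and more often pseudogenes than those of the odd-only peaks. The nearest GENCODE vM21 gene was protein-coding for 213 of 409 (52.1%, 95% Wilson interval 47.2 to 56.9), against 64.6% (63.8 to 65.5) of the odd-only and 60.9% (59.1 to 62.7) of the even-only peaks. It was a pseudogene for 108 (26.4%, 22.4 to 30.9), against 13.3% and 15.8%. The taller shared peaks were close to the shared moderate ones, with 50.7% (42.4 to 59.1) and 20.9% (14.9 to 28.5). A lncRNA was nearest to 58 (14.2%, 11.1 to 17.9), against 15.4% and 17.2%, and a small RNA to 27 (6.6%, 4.58 to 9.43), against 4.61% and 4.31%. Outside clusters the same shares were 49.8% (43.2 to 56.3) for protein-coding genes and 24% (18.8 to 30) for pseudogenes. These intervals cover counting error only, and peaks in one cluster or repeat family are not independent.

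The summits of 222 peaks lay inside a gene (54.3%) and those of 160 inside a protein-coding gene (39.1%, 34.5 to 43.9), against 49.6% of the odd-only peaks. 192 summits lay in introns, 9 in coding exons, 9 in UTRs, 12 in other exons and 187 between genes. The distance to the nearest gene had a median of 0 bp and an upper quartile of 7737 bp over all 409 peaks. The distance to the nearest protein-coding start had a median of 26576 bp, against 33603 bp over the odd-only peaks. It was shorter than that in clusters (10931 bp) and longer outside them (45921 bp). Promoters, taken as 1000 bp either side of a protein-coding start, held 22 summits (5.38%, 3.58 to 8.01), against 5.88% of the odd-only peaks, a difference inside the interval. 242 different genes were nearest, 206 of them to a single peak. The genes nearest to most peaks stood in the clusters, with *C130026I21Rik* nearest to 25, *Gm26624* to 19 and *Sp110* to 15.

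39 peaks had their summit in an exon of a protein-coding gene or within 1000 bp of a protein-coding start, and 23 of these lay in the clusters of chromosome 1. The 10 with the highest lower pileup began with a UTR of *Lars2*, the mitochondrial leucyl-tRNA synthetase gene (20 odd, 25 even). They went on with an exon of *Sp110* (18 and 17), a UTR of *Sp140* (14 and 16), a site 753 bp from the start of *Oasl1*, an interferon-induced gene (13 and 17), and a coding exon of *AW822073* (14 and 13). Sites 258 and 259 bp from starts of *C130026I21Rik* (12 and 12, 19 and 12), a coding exon of *Por*, which encodes the electron donor of the cytochromes P450 (18 and 12), a UTR of *A530032D15Rik* (13 and 11) and a site 511 bp from the start of *Tmem267* (14 and 11) completed them. A coding exon of *A530032D15Rik* (13 and 11) tied with its UTR, since ties went to the higher sum of both pileups and then to the position. Of these 10, 4 lay outside the clusters. The odd pileup was the higher in 6 of the 10, the even in 3, and both were equal in 1.

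Repeated sequence was more frequent in the shared moderate peaks than in the peaks of either list alone. Another place in the genome matched the window around the summit at 95% identity or more over at least 90 bp for 277 of 409 (67.7%, 63.0 to 72.1). The same search on every 10th peak gave 8.29% (6.88 to 9.95, n = 1243) for the odd-only and 17.0% (13.1 to 21.8, n = 288) for the even-only peaks, and 49.3% (40.9 to 57.6) for the 134 taller shared peaks. An exact copy of the whole window was found for 92 (22.5%, 18.7 to 26.8). It was found for 1.29% of the odd-only, 6.25% of the even-only and 14.9% (9.87 to 21.9) of the taller shared peaks. A copy on the same chromosome within 1 Mb was found for 162 (39.6%, 35.0 to 44.4), against 4.1%, 10.4% and 26.9% (20.1 to 34.9) of these sets. The share with a copy was 71.8% in clusters and 64.3% outside them. No summit matched the mitochondrial genome (0 of 409, upper bound of the interval 0.93%).

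Soft-masked sequence was likewise more frequent in the shared moderate peaks than in the odd-only and even-only peaks, and more so outside clusters than in them. The soft-masked share, that is, the bases written in lower case in the reference because they belong to known repeats, had a median of 44.3% over the shared moderate peaks, 15.5% over the odd-only, 21.5% over the even-only and 54.0% over the taller shared peaks. At least 90% was masked in 116 peaks (28.4%, 24.2 to 32.9), against 3.58% of the odd-only, 9.84% of the even-only and 16.4% (11.1 to 23.6) of the taller shared peaks. Outside clusters this reached 44.8% (38.4 to 51.4), whereas in clusters it was 9.04% (5.72 to 14). An assembly gap lay within 50 kb of 74 summits (18.1%, 14.7 to 22.1), against 0.966% of the odd-only and 23.9% (17.5 to 31.8) of the taller shared peaks. The median GC content was 45.5% in the shared moderate and also in the odd-only peaks. At least 10 copies in a row of AC stood in 25 peaks (6.11%, 4.17 to 8.87), against 4.33% of the odd-only and 9.18% of the even-only peaks, and of GA in 16 (3.91%, 2.42 to 6.26), against 2.69% and 7.9%.

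**Figure D4:**
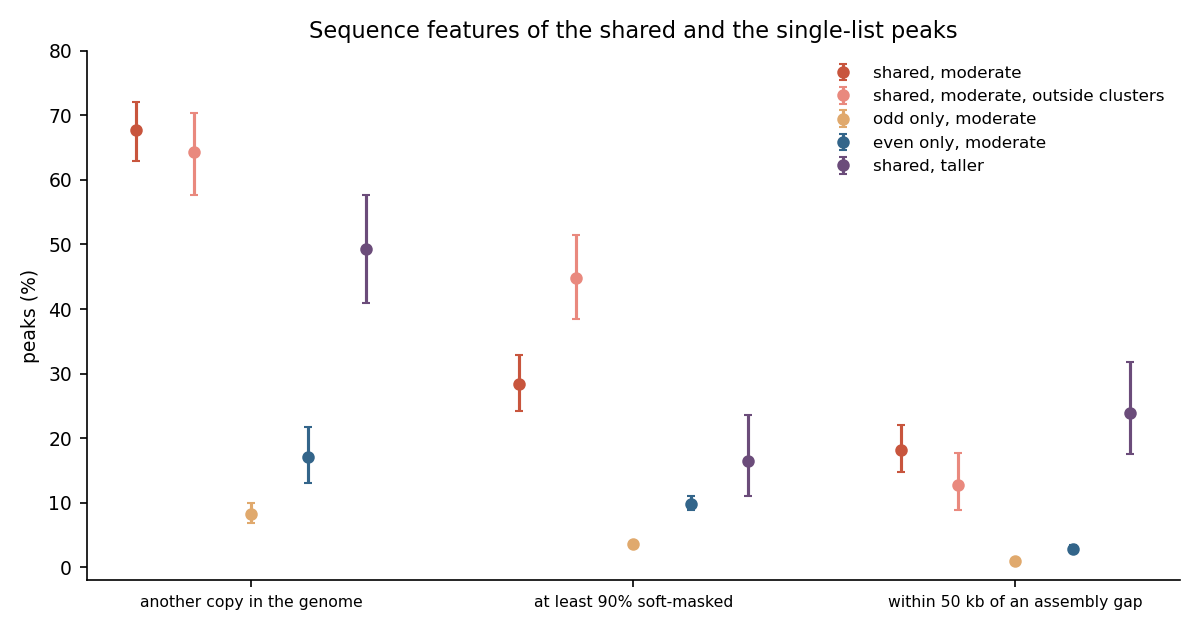
Share of peaks (y axis, %) with another copy in the genome, with at least 90% of bases soft-masked and within 50 kb of an assembly gap (x axis), for the shared moderate peaks, the same without clusters, the odd-only, the even-only and the taller shared peaks. Bars are 95% Wilson intervals. The shared moderate peaks stand at 67.7% for another copy, against 8.29% and 17.0% of the odd-only and even-only peaks.

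The shared moderate peaks resembled each other as well as other places. 182 of them fell into 37 families of at least 2 peaks, linked by 90% identity over 100 bp or more, and 227 had no relative among them. The largest family had 32 peaks on 14 chromosomes, none in a cluster, with odd pileups of 8 to 29 and even pileups of 7 to 27. 23 of the 32 carried the run of *Gm19619* exon 3 printed first above. The next family had 19 peaks on 6 chromosomes, partly in the clusters of chromosome 1 at *A530032D15Rik*, *C130026I21Rik* and *Sp140* and in that near *Pisd-ps1*. The one after it had 18 peaks on 9 chromosomes.

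A run of at least 14 bases of the annotated spliced *Gm19619* transcript, on either strand, occurred in 65 shared moderate peaks (15.9%, 12.7 to 19.8), with the gene itself left out. Odd-only peaks held such a run in 8.54% (8.06 to 9.04), even-only peaks in 16.1% (14.8 to 17.5) and taller shared peaks in 36.6% (28.9 to 45.0). The order against the odd-only peaks depended on the length of the run, since runs of at least 12 bases occurred in 34.5% of the shared moderate and 41.9% of the odd-only peaks. Outside clusters 54 of 221 shared moderate peaks held one (24.4%, 19.2 to 30.5), against 5.85% in clusters. By place in the RNA, 35 runs lay in exon 3, 17 in exon 6, 6 in exon 1, 5 across exons 2 and 3, and 2 in exon 2. Only the longest run of each peak was placed, here and below. A peak whose longest run lies elsewhere is therefore not counted at a place. The 3 places in the RNA described next were chosen after their values were seen. The study describes a shorter form of the RNA in liver. Read against its sequence, the 17 bases of exon 3 printed above are missing from it, and the printed runs of exon 6 and across exons 2 and 3 are in it. In the study's probe list, an odd-numbered probe is complementary to the printed run of exon 6. An even-numbered probe is complementary to bases on both sides of the printed junction of exons 2 and 3. Beyond this reading of the list, the probes were not set against the peaks, and recovery by direct pairing was not tested.

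The run of 17 bases in exon 3 (chr5:91280179-91280195) was carried whole by 18 peaks and in part by 5 more. All 23 had another copy, their median soft-masked share was 100%, and the run itself is soft-masked in the gene. Their odd pileups were 8 to 29 (median 13) and their even pileups 8 to 27 (median 14). The odd was higher in 10, the even in 11 and both were equal in 2. The even was at least 2 times the odd in 2 of them, 1 of which was the intron of *Galc* (9 and 25). The highest pair was that near *Gm23252* on chromosome 10, at 28 and 27. The run in *Cntnap5c* came with 20 and 25, that in *Agbl4* with 18 and 26, and that in an intron of *Sdhaf3* with 20 and 17. Of the odd-only peaks 0.169% held this run and of the even-only peaks 0.522%, against 5.62% (3.78 to 8.3) of the shared moderate and 5.22% (2.55 to 10.4) of the taller shared peaks.

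The 5 peaks with a run across exons 2 and 3 all had the higher even pileup. In *Galnt17*, a glycosyltransferase gene, the pileups were 9 odd and 20 even. In *Nkain2* they were 12 and 25, and in *Adtrp* they were 7 and 18. Both in *Fam210a* on chromosome 18 and near *A930038B10Rik* they were 7 and 20. The even pileups (18 to 25) and the odd (7 to 12) did not overlap, and the even was at least 2 times the odd in all 5. A run across this junction was the longest run of 126 of 2875 even-only peaks (4.38%, 3.69 to 5.19) and of 0 of 12428 odd-only peaks (upper bound 0.0309%). None of the 5 had another copy in the genome.

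The 6 peaks with the shared run of exon 6 went the other way, an order that the choice of the run largely set. The run was picked from the exon 6 peaks whose odd pileup was at least 2 times the even. The pileups were 26 odd and 7 even near *Gm23644*, 29 and 8 in *Helz*, and 19 and 6 in *Csmd1*. They were 22 and 8 in *Dnmt3a*, which encodes a de novo DNA methyltransferase, 25 and 10 in *Ssh2*, and 23 and 18 in the lncRNA *Gm31508*. Odd values (19 to 29) were above the even in each, by at least 2 times in 5 of the 6. Of the odd-only peaks 81 of 12428 held this run (0.652%, 0.525 to 0.809) and of the even-only peaks 0 of 2875 (upper bound 0.133%). None of the 6 had another copy. In all, 17 shared moderate peaks had a run of exon 6. The other 11 showed no such order, a contrast that follows in part from the same choice. Another copy was found for 10 of these 11. Their odd pileups were 7 to 27 (median 11) and their even pileups 8 to 27 (median 9), the odd was higher in 5, the even in 4 and both were equal in 2, and the odd was at least 2 times the even in 1. The heights in this and the 2 preceding paragraphs belong to the values that chose the peaks and are a description.

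**Figure D5:**
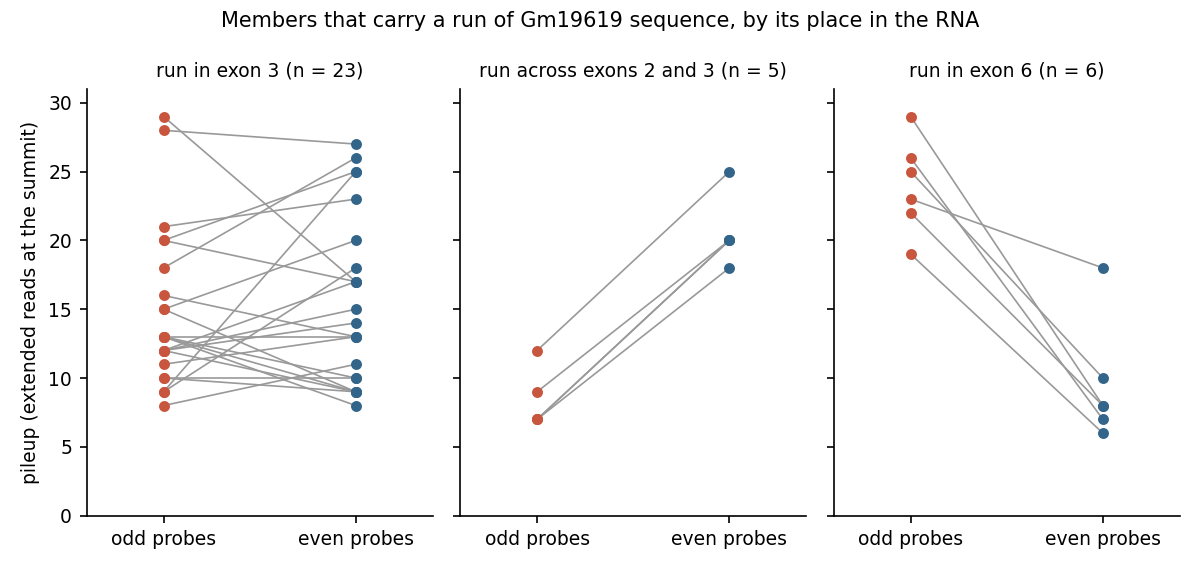
Pileup (y axis, extended reads at the summit) with odd (red) and even probes (blue) of the shared moderate peaks that carried the run in exon 3 (23 peaks), across exons 2 and 3 (5) or the shared run of exon 6 (6) of *Gm19619*. Grey lines join the values of a peak. Lines run both ways for exon 3, all rise towards the even probes for exons 2 and 3, and all fall for the 6 peaks with that run of exon 6. These pileups are among the values that chose the peaks and are a description. The run of exon 6 was picked from peaks whose odd pileup was at least 2 times the even.

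*Gm19619* itself held 1 shared moderate peak, at exon 2 (chr5:91281322-91281690), with pileups of 16 odd and 20 even. It overlaps the whole annotated exon (chr5:91281420-91281618). The longest runs in other peaks were 23 bases of exon 3 in *Gm26624* on chromosome 4 (8 odd, 8 even), 19 bases in *Galnt17* and 18 bases each in *Nkain2* and near *Pisd-ps1* (13 and 17).

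Genes of the pathways studied in this liver model were nearest to few peaks of any set. None of the shared moderate peaks had a gene of glucose, insulin and leptin signalling (36 genes), of lipid metabolism (53), of the nuclear receptor family (48), of hepatocyte identity and secretion (39 in the annotation) or of the circadian clock (19) as its nearest gene. Of the odd-only peaks 23, 31, 46, 15 and 10 had such a gene, that is, 0.185, 0.249, 0.37, 0.121 and 0.0805%, and of the even-only peaks 5, 8, 4, 3 and 2. Among 409 peaks shares this small amount to at most 1 or 2, so the absence is not a result about the shared moderate peaks. Of 66 genes of cyclic AMP and phospholipase C signalling, *Itpr1*, which encodes the inositol trisphosphate receptor of the endoplasmic reticulum, was nearest to 1, in its intron at chr6:108239041-108239709 with pileups of 18 odd and 8 even. That peak held 14 bases of *Gm19619* exon 6 and no other copy in the genome. That 1 peak was 0.244% of the 409, against 81 odd-only (0.652%) and 15 even-only peaks (0.522%).

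Multi-copy gene families differed in how often they were nearest, which does not place a peak inside the gene. The peak nearest to *Mup-ps1* lay 4044 bp from it, and no peak of the cluster near *Vmn1r-ps2* lay inside a Vmn1r gene. Genes and pseudogenes whose symbols begin with Vmn1r were nearest to 12 shared moderate peaks (5 genes, 2.93%), against 22 odd-only (0.177%) and 16 even-only peaks (0.557%). *Ugt1a1* and *Ugt1a7c* were nearest to 8 (1.96%), all in the third cluster, against 0.0724% of the odd-only peaks for all genes whose symbols begin with Ugt. Members of the major urinary protein family, which the mouse liver secretes, were nearest to 3 (0.733%, against 0.0322%), namely *Mup-ps1* (25 odd, 28 even), *Mup-ps4* (9 and 9) and *Mup18* (11 and 14), and each of these matched 399 or more other places in a search that kept at most 20 matches per chromosome. Vmn2r genes were nearest to 2 (0.489%, against 0.257%). *Zfp600* was nearest to 2 (0.489%, against 0.917% of the odd-only peaks for all Zfp genes). *Olfr8*, *Cyp2c53-ps* and *Rps2-ps5* were nearest to 1 each (0.244%, against 0.708, 0.257 and 0.41% of the odd-only peaks for their families). Counts of 1 or 2 peaks are too few to read a direction from. The peaks of one family or cluster are not independent.

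The 15 shared moderate peaks with the highest lower pileup stood at 21 or more with both probe sets. Their ratios ran from 0.808 to 1.12, and the lower pileup reached 27 in 5 of them. These 5 were the peak 57402 bp from *Gabrb2*, a GABA receptor subunit gene (27 odd, 29 even), the peak near *Mrgprd* (28 and 27), the peak near *Gm23252* with the exon 3 run (28 and 27), an intron of *Cdk8*, the kinase gene of the Mediator complex (27 and 27), and the pseudogene *Pisd-ps2* (27 and 27). The *Cdk8* peak was 3.55% soft-masked and its summit matched 1 other place, at chr1:122357132-122357233. Its letters, printed above, are recognisable as large ribosomal RNA, which is background knowledge and was not looked up in the annotation used. The following 10 were near *Gm3318* on chromosome 10 (26 and 27, and 23 and 26), near *Mup-ps1* (25 and 28), near *AC125218.3* on chromosome 18 (28 and 25), in introns of *Grk5* (23 and 27), *Lama1*, a laminin gene (23 and 23), *Fbxw4* (22 and 23), *Nkain3* (22 and 22) and *Zc3h7a* (21 and 26), and near *Gm45871* on chromosome 18 (24 and 22). Peaks near *Vmn1r-ps2* (23 and 21), in *Chst9* (21 and 23) and near *CR555305.1* (22 and 21) had the same lower pileup as that in *Zc3h7a* and were left out because their sums were lower. Of the 15, 5 had no other copy of the window around the summit at 95% identity or more over at least 90 bp. These were the peaks near *Gabrb2* and *AC125218.3* and in *Grk5*, *Fbxw4* and *Nkain3*. Looser matches were not counted here, so these 5 are not read as unique sequence. Their soft-masked shares were 100% near *Gabrb2*, 93.0% in *Grk5*, 63.1% in *Fbxw4*, 47.4% in *Nkain3* and 22.6% near *AC125218.3*.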

How the data were processed

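ChIRP-seq was done on pooled, fixed primary hepatocytes with odd-numbered and even-numbered probes against *Gm19619*, with 1 library per probe set and 0 control libraries. The authors aligned the reads to mm10 (Novoalign 4.02.02 and SAMtools 1.9 in the submitters' processing notes) and called peaks in each library separately. Per the file headers this was done with MACS2 2.1.1.20160309, with 101 bp reads, no control, a genome-wide background, an extension to 200 bp and at most 1 read per position, at a limit of 5.00e-02 on the q-value. Of 61155168 odd and 65783155 even reads, 6972538 (11.4%) and 7052802 (10.7%) were left, and the pileups were not scaled between libraries. The deposited pileup is a signal in extended reads at the summit. The deposited fold enrichment is the ratio of that pileup to the background of the same library. The deposited −log10 q-values stood under a damaged heading and were identified by their place in the file. 1 start position of the even list was unreadable and was restored from the end and length of its peak.

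The peaks, gene lists and comparison sets were chosen with earlier results of these data known. No test between conditions was possible, since neither library had a replicate, and shares are given with 95% Wilson intervals. Odd summits were set against GENCODE M21 genes, with distance 0 inside a gene. Sequences, soft-masking and assembly gaps of at least 1000 bp were read from RefSeq GRCm38.p6, the same build as mm10. Other copies were sought with BLAST+ 2.17.0 for the 101 bp around each summit, and for every 10th peak of the odd-only and even-only sets. Runs shared with *Gm19619* were sought on either strand of its annotated spliced transcript of 3201 bp, which is longer than the form the study describes in liver. Named peaks were those with the 15 highest lower pileups, the 5 highest and 5 lowest ratios, nearest genes on fixed lists, the 10 highest in exons or at starts, clusters and the 5 longest runs. Ties in these ranks went to the higher sum of both pileups, then to the position. 1 sequence feature that was also searched is not reported here. Python 3.11.15, numpy 2.4.6, pandas 2.3.3, scipy 1.17.1 and matplotlib 3.10.9 were used, and the scripts were tested on simulated data. Alternatives covered the overlap, the pileup limit, the peak threshold, the scaling, the gene rule, and the widths and lengths of each sequence search.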

Additional observations from a re-analysis of the deposited data

Results flagged for a closer look

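Chromosomes outside 1 to 19 were not used in the comparisons above and also held shared peaks of moderate height. Chromosome X held 33, which was 5.89% of its 560 odd peaks with a pileup below 30. Chromosome Y held 7 of 13 such peaks (53.8%). The mice are described as female. Other copies of the peaks placed on chromosome Y were not sought and their source was not tested, so nothing is read from them about the sex of the mice. No control library was used here to set these against.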

How the results depend on the processing

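The number of shared moderate peaks was 409, and fell to 268 with an overlap of at least 50% of both peaks and to 249 with summits at most 100 bp apart. Limits of 20 or 50 on the pileup, and stricter peak thresholds, gave 276 to 476. The median ratio of 1.0 was 1.01 after scaling by the reads left and 1.0 with fold enrichment. The share with a protein-coding nearest gene (52.1%) was 40.3% by the nearest start of any gene and 72.6% when only protein-coding and lncRNA genes were considered. The promoter share (5.38%) was 12.5% within 3000 bp, against 11.8% of the odd-only peaks, and 3.18% within 500 bp. Peaks with a *Gm19619* run numbered 141 at 12 bases and 30 at 16 bases, against 65 at 14. At 12 bases the order turned, with 34.5% of the shared moderate and 41.9% of the odd-only peaks, whereas at 16 bases the shares were 7.33% and 1.26%. Another copy was found for 92 peaks when the whole window had to be identical and for 307 at 90% identity, against 277. The soft-masked share and the share inside protein-coding genes moved within their intervals. No paired analysis was possible because each probe set had 1 library. Pileups near 5 to 10 extended reads limit what the lowest peaks can show.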
